A study of Mus musculus with 11 samples.

Results

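The Notch pathway was read in 11 RNA-seq libraries of mouse MamBo mammary carcinoma lines through 10 genes, taken by symbol from the 21846 genes of the count table, with no measured value used in the rule. They comprise the receptors Notch1, Notch2 and Notch3, the ligands Jag1, Jag2 and Dll1, and the targets Hes1, Hey1, Heyl and Nrarp. All 10 were found, once each.

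Notch receptors span the membrane and are bound by Jagged or Delta-like ligands on a neighbouring cell. Binding leads to cleavage by ADAM proteases and γ-secretase, which frees the intracellular domain to enter the nucleus, join the DNA-binding protein RBPJ and a Mastermind co-activator, and switch on targets such as the Hes and Hey repressors and Nrarp, a feedback inhibitor. In the mammary gland the pathway is known for its part in luminal cell fate.

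All lines trace back to mammary tumors of virgin female FVBhuHER2 mice, which carry human HER2 as a transgene. MamBo89 (tumor A) keeps HER2, MamBo43 (tumor B) is HER2-positive but labile, and MamBo38, derived from a tumor that MamBo43 cells had formed, has lost HER2. The 5 HER2-positive libraries were 4 of MamBo89 and 1 of untreated MamBo43. The 4 MamBo89 cultures were an untreated one named AG3 and taken here as the clone listed in the methods (MamBo89 1), untreated parental cells (MamBo89 2), cells given trastuzumab, an antibody to HER2, at 30 µg/ml for 30 days and then kept 30 days without it (MamBo89 3), and cells given it for 60 days (MamBo89 4). The 6 HER2-negative libraries were 4 of MamBo38, namely untreated cells (MamBo38 1 and 2), cells on the interrupted schedule (MamBo38 3) and cells treated for 60 days (MamBo38 4), and 2 of MamBo43 cultures that lost HER2 under trastuzumab (MamBo43 TRT), on the interrupted schedule (MamBo43 TRT 1) and for 60 days (MamBo43 TRT 2). The paper reports that such treated cultures always kept a small share of HER2-positive cells, with a few islets of polygonal cells. It also reports HER2 loss in untreated MamBo43 cells seeded at low density. No label says that libraries of a group come from separate cultures of the same kind, and the methods speak of replicates of each sample whereas the table holds a library per culture, so p-values measure the spread between these libraries, and each line stands for 1 tumor or 1 descendant of it.

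Total counts ranged from 17040454 to 27127662 per library, so that 3 counts, the detection floor used here, correspond to 0.112 to 0.179 CPM (counts over the TMM-scaled size of the library). Library names carry a code, which 8 libraries share and MamBo38 1, 3 and 4 do not. MamBo38 2 and the AG3 library stand apart from the rest of their groups, with a chi-square per degree of freedom against the others of 43.4 to 51.9 and 109 to 151, beside 6.78 to 9.07 among the other MamBo38 and 12.3 to 35.1 among the other MamBo89 libraries. Summed luminal markers were 2355 to 3807 CPM in HER2-positive libraries, 294 and 1766 CPM in MamBo43 TRT, and 21.0 to 28.3 CPM in MamBo38, with Krt19 at or under the floor throughout. Esr1 did not follow this order and made up most of the MamBo38 sum. It was at 19.4 to 25.8 CPM in MamBo38 and 7.05 to 9.27 CPM in MamBo89. In MamBo43 it was at 33.0 CPM, and in MamBo43 TRT 1 and 2 at 21.4 and 17.3 CPM. Summed fibroblast markers were 35.1 to 184 CPM in HER2-positive and 1249 to 2188 CPM in HER2-negative libraries, with Lum at or under the floor in every library. Of the 6 endothelial markers, Cdh5, Tie1 and Emcn were at or under the floor in every library, and the sum was 0.23 to 0.84 CPM apart from 4.67 CPM in MamBo43, where Erg was at 4.51 CPM. Of the 4 immune markers, Ptprc, Csf1r and Cd3e were at or under the floor in every library, and Cd68 was at 26.8 to 49.9 CPM in MamBo38 and 1.02 to 16.7 CPM elsewhere.

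The genes lie on mouse build GRCm38 (mm10) as follows, with GENCODE M21 annotation of the whole protein-coding gene, exons and introns included. Notch1 (ENSMUSG00000026923) is at chr2:26457903-26516663 on the minus strand and Nrarp (ENSMUSG00000078202) at chr2:25180758-25183339 on the plus strand. Notch2 (ENSMUSG00000027878) is at chr3:98013527-98150361 on the plus strand, Notch3 (ENSMUSG00000038146) at chr17:32120820-32166852 and Dll1 (ENSMUSG00000014773) at chr17:15367354-15376872, both on the minus strand. The other 5 are Jag1 at chr2:137081456-137116644, Jag2 at chr12:112907819-112929776, Hes1 at chr16:30064384-30067796, Hey1 at chr3:8663359-8667256 and Heyl at chr4:123233556-123249875, and none of these 5 shares exon bases with another gene. Antisense gene Gm38287 covers 79.4% of the exon bases of Nrarp and A930024N18Rik covers 20.5% of those of Dll1. The library kit is taken here to keep no strand, so reads of these pairs cannot be told apart. For Notch1, Notch2 and Notch3 the overlap with other genes was 9.76%, 5.02% and 6.03% of exon bases.

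The RefSeq promoter table of GRCm38.p6 matched 7 of the 10 genes, with 8 promoters (Dll1 has 2), each running from 250 bases before the start to 50 bases after it. Hes1, Hey1 and Heyl had no match. The RBPJ core word TGGGAA, searched on both strands, was in 0 of the 8 promoters and in 25.6% of all 32851. The E-box word CACGTG, which Hes and Hey proteins are among those known to bind, was in 1 of the 8 (Nrarp, beginning 108 bases before the start) and in 7.15% of all. The GC-box word GGGCGG, on either strand, was in 5 of the 8 and in 35.7% of all. The last 2 words were added after the first had been searched. The 130 bases before the start are shown for the receptors, of which Notch1 and Notch3 differed with HER2 status and Notch2 did not pass the test, and for Nrarp, the 1 target with a matched promoter. They are written along the strand of each gene, with CACGTG and GGGCGG (or its complement CCGCCC) in capitals. The regions are chr2:26503823-26503952 for Notch1 (minus strand), chr3:98013408-98013537 for Notch2 (plus), chr17:32166891-32167020 for Notch3 (minus) and chr2:25180628-25180757 for Nrarp (plus). They count from RefSeq starts, which can differ from those of GENCODE. The whole Notch1 region and the last bases of the Notch2 region lie inside the GENCODE intervals given above.
Notch1: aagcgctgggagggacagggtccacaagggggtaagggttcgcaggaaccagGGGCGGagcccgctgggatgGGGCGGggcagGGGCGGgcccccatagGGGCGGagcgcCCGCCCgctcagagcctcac
Notch2: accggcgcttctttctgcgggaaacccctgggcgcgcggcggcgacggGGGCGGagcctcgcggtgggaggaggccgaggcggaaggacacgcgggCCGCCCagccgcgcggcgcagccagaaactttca
Notch3: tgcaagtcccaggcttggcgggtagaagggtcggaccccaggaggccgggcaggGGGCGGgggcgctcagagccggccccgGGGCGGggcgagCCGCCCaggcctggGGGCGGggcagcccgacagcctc
Nrarp: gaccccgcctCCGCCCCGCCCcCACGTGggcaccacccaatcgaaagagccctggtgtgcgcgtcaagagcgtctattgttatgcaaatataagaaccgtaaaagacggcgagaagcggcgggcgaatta
The GC-box word occurs 5 times in the Notch1 stretch, 2 times in that of Notch2, 4 times in that of Notch3 and 2 times in that of Nrarp, where both occurrences overlap by their end base. A word match is a description of these letters, and it was found in the receptor that did not pass the test as well as in those that did.

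The first question was how the 10 genes differ between HER2-negative and HER2-positive cells. Notch1, Notch3, Dll1, Hey1 and Nrarp were lower and Jag1 was higher in HER2-negative cells, Notch2, Jag2 and Hes1 did not pass the test, and Heyl had too few counts to be tested. A gene was called when edgeR's quasi-likelihood test gave a Benjamini-Hochberg adjusted p under 0.1 and the log2 fold change was at least 1 in size. Of the 9 tested genes 6 were called, 5 lower and 1 higher, against 32.8% of all 12364 genes tested, of which 17.0% were called lower and 15.8% higher. The median log2 fold change was -2.51 over the 9 genes and -0.04 over all genes tested. Of the 10 genes, 7 did not overlap between the groups in any library. Without Heyl, which was not tested, it was 6 of 9, beside 34.9% of all genes tested. These are bulk samples, in which fewer cells expressing a gene and less RNA per cell cannot be told apart.

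**Figure D1:**
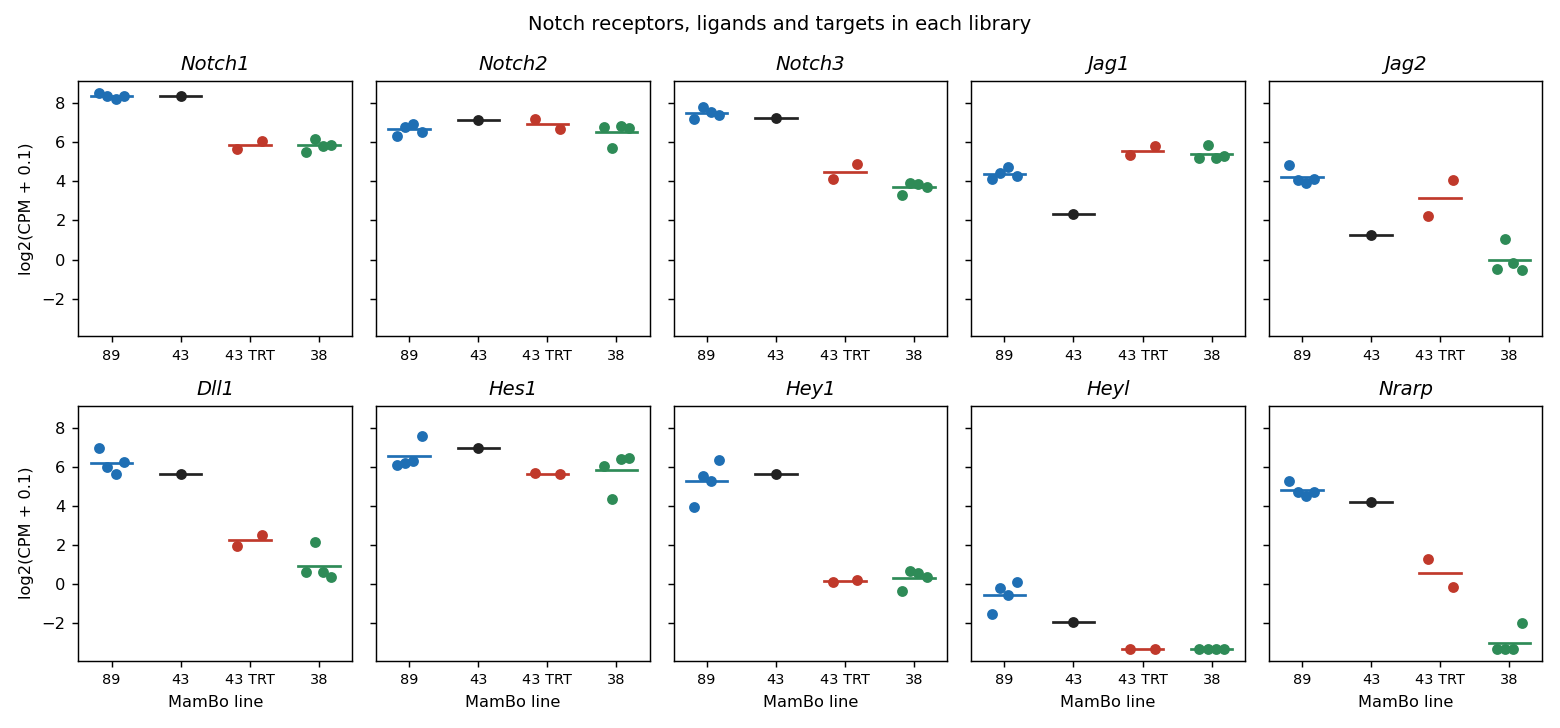
Each point is 1 library and each bar the mean of its group on the log2(CPM + 0.1) scale, for MamBo89 (4 libraries), MamBo43 (1), MamBo43 TRT (2) and MamBo38 (4). Notch1, Notch3, Dll1, Hey1 and Nrarp are high in the first 2 groups and low in the last 2, Jag1 is lowest in MamBo43 at 4.90 CPM, and Notch2 lies between 80.0 and 144 CPM in all libraries apart from MamBo38 2 at 51.5 CPM.

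Among the receptors, Notch1 was at 372, 333, 294 and 333 CPM in MamBo89 1 to 4, at 329 CPM in MamBo43, at 50.0 and 67.0 CPM in MamBo43 TRT 1 and 2, and at 44.7, 73.0, 56.7 and 58.0 CPM in MamBo38 1 to 4. Every HER2-positive library lay above every HER2-negative one, and within each class the groups overlapped. The means were 332 ± 27.6 CPM (SD, n = 5) and 58.2 ± 10.5 CPM (SD, n = 6), and the log2 fold change with its SE was -2.51 ± 0.14 (adjusted p = 8.64e-07 by edgeR). The study itself named Notch1 from these samples, so its direction is not independent evidence.

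Notch3, which in adult tissue is best known from mural cells and luminal progenitors, was at 148, 227, 188 and 169 CPM in MamBo89 1 to 4 and 152 CPM in MamBo43. It was at 17.4 and 29.1 CPM in MamBo43 TRT 1 and 2 and at 9.73, 15.1, 14.3 and 13.2 CPM in MamBo38 1 to 4. The fitted log2 difference was -3.42 ± 0.26 (adjusted p = 4.42e-06 by edgeR), again with no overlap. Mural markers did not move as 1 list. Their sum was 2.57 to 24.3 CPM in HER2-positive and 25.8 to 47.9 CPM in HER2-negative libraries, led by Cspg4 (0 to 2 CPM and 16.7 to 47.3 CPM). Mcam was at 2.38 to 18.6 CPM in HER2-positive libraries, 8.14 and 13.5 CPM in MamBo43 TRT and 0.14 to 0.50 CPM in MamBo38, Abcc9 was at 3.57 CPM in MamBo43 and at 0 to 0.74 CPM elsewhere, Myh11 at 0.06 to 0.54 CPM, and Rgs5 and Kcnj8 at or under the floor in all. Their part in the Notch3 difference was not tested.

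Notch2 did not pass the test. It was at 80.0, 111, 124 and 93.6 CPM in MamBo89 1 to 4, 141 CPM in MamBo43, 144 and 102 CPM in MamBo43 TRT 1 and 2, and 111, 51.5, 114 and 105 CPM in MamBo38 1 to 4. The groups overlapped, and the log2 fold change of -0.07 ± 0.23 (adjusted p = 0.818 by edgeR) was smaller than its error.

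Per kilobase of exon, the only scale on which different genes are compared here, the receptor make-up therefore differed between the HER2 classes. Notch1, Notch2, Notch3 and Notch4 together came to 55.5 ± 3.82 CPM per kb (SD, n = 5) in HER2-positive and 16.0 ± 2.44 CPM per kb (SD, n = 6) in HER2-negative libraries. Notch2 made up 18.3% ± 3.75 of this sum in HER2-positive and 59.9% ± 11.8 in HER2-negative libraries. Notch1 made up 42.3% ± 5.34 and 26.5% ± 8.31, and Notch3 39.2% ± 4.71 and 12.7% ± 4.34. In MamBo38 2 the shares of Notch1 and Notch2 were 42.3% and 39.3%, so that this library, unlike the other 5 HER2-negative ones, did not have Notch2 as its leading receptor. These shares are given as a description, with no test. They depend on the exon union over all annotated transcripts, which is 14232 bases for Notch1, 10782 for Notch2 and 8089 for Notch3. A gene whose union holds exons that these cells do not use comes out too low per kb in every library.

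**Figure D2:**
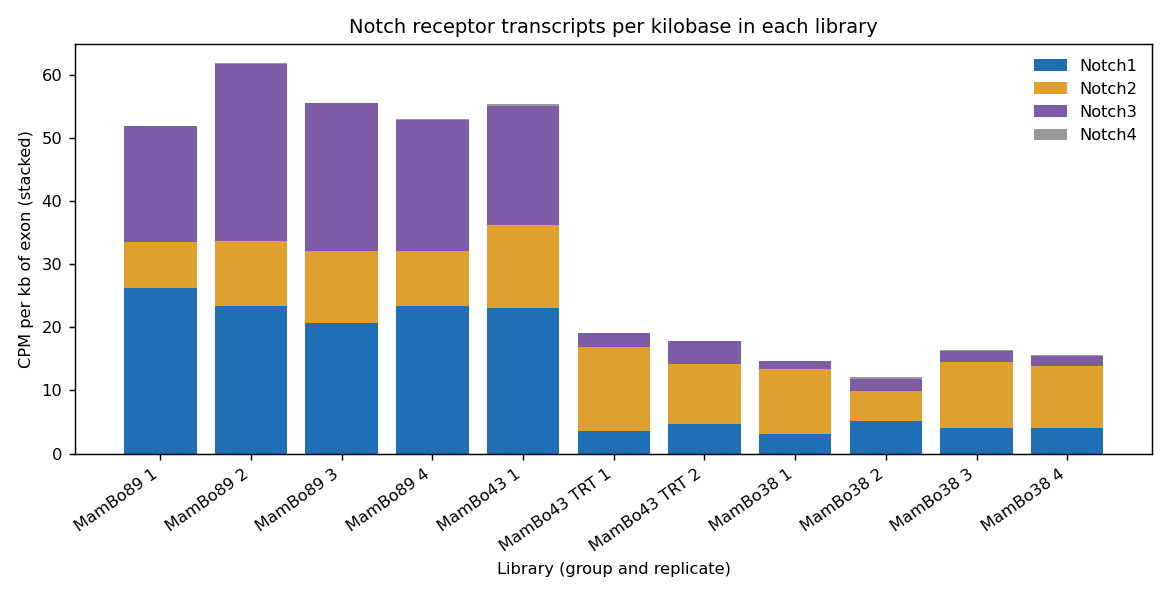
Stacked bars give the CPM per kb of exon of the 4 Notch receptors in each of the 11 libraries, from 0. The sums lie between 51.9 and 61.8 CPM per kb in the 5 HER2-positive libraries and between 12.1 and 19.1 CPM per kb in the 6 HER2-negative ones, where the Notch2 segment spans 4.78 (MamBo38 2) to 13.4 CPM per kb, beside 7.42 to 13.1 in HER2-positive libraries, and the Notch1 and Notch3 segments are short.

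Among the ligands, Dll1 and Jag1 went in opposite directions. Dll1, a Delta-like ligand, was at 126, 63.4, 50.0 and 76.3 CPM in MamBo89 1 to 4 and 49.0 CPM in MamBo43. It was at 3.73 and 5.69 CPM in MamBo43 TRT 1 and 2 and at 1.44, 4.35, 1.43 and 1.20 CPM in MamBo38 1 to 4. The groups did not overlap, and the fitted log2 difference was -4.61 ± 0.49 (adjusted p = 2.77e-05 by edgeR). Among the 8 libraries of 1 code it was -3.97 (adjusted p = 0.000716 by edgeR).

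Jag1, a Jagged ligand, was at 17.5, 21.1, 26.9 and 19.2 CPM in MamBo89 1 to 4 and at 4.90 CPM in MamBo43. It was at 40.8 and 55.5 CPM in MamBo43 TRT 1 and 2 and at 37.2, 58.9, 36.5 and 38.7 CPM in MamBo38 1 to 4. All HER2-negative libraries were above all HER2-positive ones, and MamBo43 was the lowest of all. The fitted log2 difference was 1.31 ± 0.35 (adjusted p = 0.00837 by edgeR), and it was 3.18 (adjusted p = 0.000559 by edgeR) once the tumor of origin was a covariate and 3.15 (adjusted p = 0.00335 by edgeR) within tumor B.

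Jag2 did not follow HER2 status. It was at 28.3, 16.7, 14.9 and 17.2 CPM in MamBo89 1 to 4, 2.31 CPM in MamBo43, 4.61 and 16.8 CPM in MamBo43 TRT 1 and 2, and 0.63, 2.01, 0.77 and 0.60 CPM in MamBo38 1 to 4. MamBo89 and MamBo43 TRT 2 were high and MamBo38 low. The log2 fold change of -1.90 ± 0.92 was not called (adjusted p = 0.103 by edgeR). It was called without MamBo43 TRT 2 (-3.20, adjusted p = 0.00606 by edgeR), without MamBo43 (-2.18, adjusted p = 0.059 by edgeR), among untreated libraries (-3.56, adjusted p = 0.0915 by edgeR) and by DESeq2 (-1.90, adjusted p = 0.0463), and its sign turned within tumor B (0.85, adjusted p = 0.775 by edgeR).

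Per kilobase of exon, Dll1 led the 3 ligands in HER2-positive libraries with a mean of 17.3 CPM per kb, ahead of Jag1 at 3.08 and Jag2 at 2.28 CPM per kb. In HER2-negative libraries Jag1 led with 7.65 CPM per kb, and Dll1 and Jag2 were at 0.71 and 0.61 CPM per kb. The lowest Dll1 value among HER2-positive libraries was 11.6 CPM per kb and the highest Jag1 value there was 4.62 CPM per kb. In HER2-negative libraries the lowest Jag1 value was 6.26 CPM per kb and the highest Dll1 value 1.35 CPM per kb, so the order of these 2 ligands was the same in every library of a class.

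Among the targets, Hey1 and Nrarp were lower in HER2-negative cells and Hes1 did not pass the call. Hey1, a repressor of the Hes and Hey family, was at 15.3, 45.6, 39.2 and 80.4 CPM in MamBo89 1 to 4 and 50.2 CPM in MamBo43. It was at 0.98 and 1.07 CPM in MamBo43 TRT 1 and 2 and at 0.67, 1.51, 1.37 and 1.20 CPM in MamBo38 1 to 4. The groups did not overlap, and the fitted log2 difference was -5.34 ± 0.40 (adjusted p = 4.2e-06 by edgeR).

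Nrarp, which binds the Notch intracellular domain and limits its activity, was at 39.3, 25.8, 22.3 and 26.3 CPM in MamBo89 1 to 4 and 18.1 CPM in MamBo43. MamBo43 TRT 1 and 2 were at 2.30 and 0.80 CPM (47 and 21 counts), and the MamBo38 libraries held 0, 0, 0 and 4 counts. With the 3 libraries at 0 set to the floor of 3 counts each, the mean of the HER2-positive libraries was at least 164.6-fold higher than that of MamBo38, and MamBo43, the lowest of them, at least 112.9-fold. The log2 fold change between the HER2 classes was -5.57 ± 1.12 (adjusted p = 0.0017 by edgeR). It depends on the prior count of 0.125 added in the fit, and it was -6.93 without MamBo43 TRT 1, -4.65 among libraries of 1 code and -12.19 among untreated libraries.

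Hes1, a repressor widely used as a readout of Notch activity, was at 68.5, 74.5, 78.7 and 195 CPM in MamBo89 1 to 4, 125 CPM in MamBo43, 52.0 and 48.8 CPM in MamBo43 TRT 1 and 2, and 65.6, 20.7, 85.4 and 87.9 CPM in MamBo38 1 to 4. MamBo38 and MamBo89 overlapped. The log2 fold change of -0.85 ± 0.38 (adjusted p = 0.0774 by edgeR) was under 1 in size and not called. It was called with the library code as a covariate (-1.42, adjusted p = 0.0186 by edgeR) and among the 8 libraries of 1 code (-1.41, adjusted p = 0.0434 by edgeR).

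Heyl, the third of the Hes and Hey genes here, held 5, 17, 10 and 18 counts in MamBo89 1 to 4, 4 counts in MamBo43 and 0 counts in all 6 HER2-negative libraries. Its mean of 0.551 ± 0.353 CPM (SD, n = 5) in HER2-positive libraries was at least 3.82-fold higher than the floor of 3 counts per library in the HER2-negative ones. Per kilobase of exon, Hes1 was the highest of the 4 targets in both classes, at 53.2 and 29.5 CPM per kb, followed by Hey1 at 14.1 and 0.35 CPM per kb, Nrarp at 10.2 and 0.21 CPM per kb and Heyl at 0.11 and 0 CPM per kb. Hey1 and Nrarp changed places in single groups and libraries, with Nrarp above Hey1 in MamBo43 TRT (means of 0.60 and 0.31 CPM per kb) and in MamBo89 1 (15.2 and 4.68 CPM per kb).

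The luminal and fibroblast marker sums given above, though not Esr1, Krt19 or Lum within them, moved with these differences between HER2 classes. Their part in the differences was not tested. In the libraries of 1 code, with 5 HER2-positive and 3 HER2-negative libraries, Notch1 (-2.38), Notch3 (-3.10), Dll1 (-3.97), Hey1 (-5.27) and Nrarp (-4.65) were again lower and Jag1 (1.54) higher, with adjusted p from edgeR between 0.000287 and 0.0299. The same 6 genes were called when any 1 library was left out.

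The next question was where along the MamBo43 lineage the differences lay. In the comparison of MamBo43 TRT with untreated MamBo43, 8 of the 10 genes were called, 2 higher and 6 lower, against 29.1% of 13782 genes tested. Heyl is among these lower calls, although it passed the filter on low counts through MamBo89 and had 4 counts against 0 here, and 7 of the other 9 were called. The median log2 fold change of the 10 was -2.60, beside 0 over all genes tested. MamBo43 was 1 library, and the fit of all 4 groups assumes that it varies like the others. The receptors Notch1 (-2.49 ± 0.27, adjusted p = 0.000194 by edgeR) and Notch3 (-2.71 ± 0.33, adjusted p = 0.000389 by edgeR) were lower after trastuzumab, and Notch2 was at -0.19 ± 0.42 (adjusted p = 0.766 by edgeR).

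Of the ligands, Jag1 rose most, by 3.30 ± 0.42 on the log2 scale (adjusted p = 0.000474 by edgeR), from 4.90 CPM to 40.8 and 55.5 CPM. Jag2 was called higher (2.21 ± 0.88, adjusted p = 0.0817 by edgeR), but its treated libraries were at 4.61 and 16.8 CPM. It was 0.995 and not called without MamBo43 TRT 2 (adjusted p = 0.416 by edgeR), and 2.83 without MamBo43 TRT 1. Dll1 was lower by -3.37 ± 0.66 (adjusted p = 0.00439 by edgeR).

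Of the targets, Hey1 was lower by -5.60 ± 0.75 (adjusted p = 0.000607 by edgeR) and Nrarp by -3.55 ± 0.69 (adjusted p = 0.00395 by edgeR), which became -4.51 without MamBo43 TRT 1 and -2.97 without MamBo43 TRT 2. Hes1 was at -1.31 ± 0.74 and not called (adjusted p = 0.205 by edgeR), with both treated libraries under the untreated one. Under the alternative settings Hes1 ran from -1.34 to -1.31, and some of them gave a call. Heyl was called (adjusted p = 0.0915 by edgeR), on 4 counts in MamBo43 and 0 in each treated library. That call was lost without either treated library (adjusted p = 0.168 and 0.224 by edgeR), by DESeq2 and without a filter on low counts. The basal marker sum was 26.4 CPM in MamBo43 and 114 and 621 CPM in MamBo43 TRT, and its part in these differences was not tested.

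**Figure D3:**
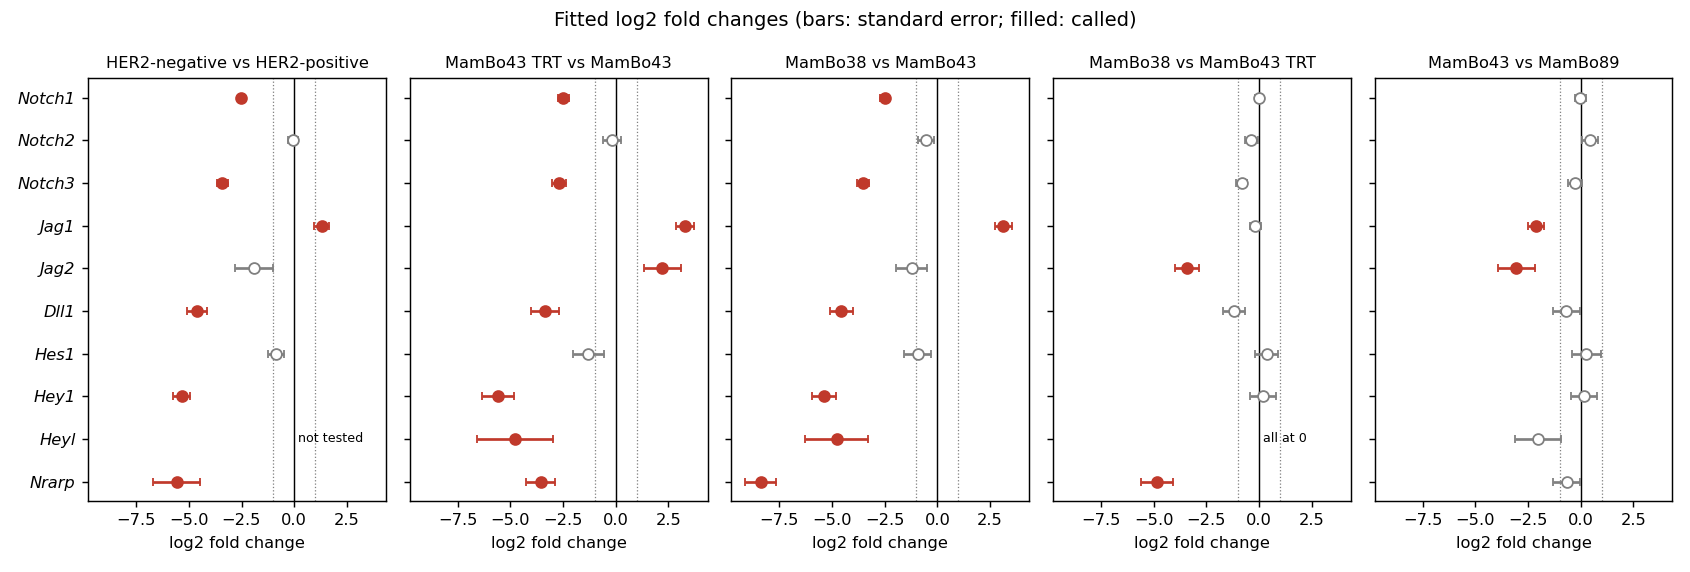
Points are log2 fold changes from edgeR for the 10 genes in 5 comparisons, bars are standard errors, filled points were called and dotted lines mark a log2 fold change of 1 in either direction. Notch1, Notch3, Dll1, Hey1 and Nrarp lie left of -1 in the first 3 panels, and in the panel of MamBo38 against MamBo43 TRT the called genes are Jag2 at -3.44 and Nrarp at -4.84.

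MamBo38, the line that lost HER2 in the animal, was compared with the same MamBo43 library, so this comparison and the previous one are not independent. Here 7 of the 10 genes were called, 1 higher and 6 lower, against 35.9% of all genes tested, or 6 of 9 without Heyl, and the median was -3.02, beside 0.00 over all. Notch1 was at -2.50 ± 0.22 (adjusted p = 1.32e-05 by edgeR), Notch3 at -3.54 ± 0.27 (adjusted p = 5.53e-06 by edgeR) and Jag1 at 3.13 ± 0.40 (adjusted p = 0.000146 by edgeR). Dll1 was at -4.56 ± 0.55 (adjusted p = 0.000103 by edgeR), at -5.17 without MamBo38 2, and at -3.49 among libraries of 1 code.

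Hey1 was lower by -5.40 ± 0.58 (adjusted p = 4.46e-05 by edgeR). For Nrarp, where MamBo43 stood above MamBo38 by the bound given before, the fitted value was -8.40 (adjusted p = 1.23e-05 by edgeR), and -11.53 without MamBo38 4, which held the 4 counts. Heyl was called on 4 counts against 0 in every MamBo38 library (adjusted p = 0.0422 by edgeR), and not among libraries of 1 code (adjusted p = 0.209 by edgeR) or by DESeq2.

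Notch2 (-0.56 ± 0.38), Jag2 (-1.22 ± 0.73) and Hes1 (-0.94 ± 0.66) were not called, with edgeR adjusted p between 0.206 and 0.278. With the library code as a covariate, which leaves MamBo38 2 to stand for MamBo38, Notch2 (-1.45, adjusted p = 0.00807 by edgeR) and Hes1 (-2.59, adjusted p = 0.0171 by edgeR) were called. Jag2 was at -0.20 with the code as a covariate (adjusted p = 0.876 by edgeR) and was called without MamBo38 2 (-1.79, adjusted p = 0.0519 by edgeR).

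The direct comparison of MamBo38 with MamBo43 TRT asks whether cultures from both routes of HER2 loss differ in these genes. Some HER2-positive cells may remain in MamBo43 TRT, as given above. Of the 10, 2 were called, both lower in MamBo38, against 20.4% of all genes tested, and the median was -0.27, beside -0.01 over all. Jag2 was at 0.60 to 2.01 CPM in MamBo38 and at 4.61 and 16.8 CPM in MamBo43 TRT, and the fitted log2 difference was -3.44 ± 0.57 (adjusted p = 0.00172 by edgeR). It was -2.22 without MamBo43 TRT 2, -4.10 without MamBo43 TRT 1, and lost its call among libraries of 1 code (-2.41, adjusted p = 0.126 by edgeR).

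Nrarp, at 47 and 21 counts in MamBo43 TRT and 4 counts in all of MamBo38, was at least 9.70-fold higher in MamBo43 TRT, with libraries at 0 set to the floor. Its fitted value was -4.84 ± 0.78 (adjusted p = 0.00153 by edgeR), -7.98 without MamBo38 4 and -3.93 without MamBo43 TRT 1. Notch3, with Jag2 and Nrarp 1 of the 3 genes of the 10 whose groups did not overlap here (58.6% of all genes tested did not), was at -0.83 ± 0.24 (adjusted p = 0.0268 by edgeR), under 1 in size. It was called without MamBo43 TRT 1 (-1.17, adjusted p = 0.0168 by edgeR) and was -0.41 without MamBo43 TRT 2 (adjusted p = 0.345 by edgeR).

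Dll1 was at -1.19 ± 0.52 (adjusted p = 0.11 by edgeR), called without MamBo38 2 (-1.80, adjusted p = 0.0113 by edgeR) and by DESeq2 (-1.15, adjusted p = 0.0773), and near 0 among libraries of 1 code (-0.12, adjusted p = 0.928 by edgeR). It was -0.84 without MamBo43 TRT 2 (adjusted p = 0.445 by edgeR). Notch1 (-0.01 ± 0.20), Jag1 (-0.17 ± 0.24), Hes1 (0.37 ± 0.55) and Hey1 (0.20 ± 0.62) were not called, nor was Notch2 (-0.37 ± 0.30), which was called with the code as a covariate (-1.26, adjusted p = 0.017 by edgeR). Heyl was at 0 counts in all 6 libraries. Marker sums also separated these groups, luminal at 1766 and 294 CPM in MamBo43 TRT 1 and 2 and 21.0 to 28.3 CPM in MamBo38, basal at 114 and 621 CPM and 8.17 to 26.7 CPM, and fibroblast at 1968 and 2188 CPM and 1249 to 1455 CPM, and their part was not tested. The TRT library with the higher luminal sum, TRT 1, had the higher Nrarp and the lower Jag2, Notch3 and Dll1 of the pair.

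Between the HER2-positive lines, 2 of the 10 genes were called, both ligands and both lower in MamBo43 than in MamBo89, against 18.9% of all genes tested. The median was -0.46, beside -0.07 over all. Jag1 was at -2.11 ± 0.38 (adjusted p = 0.00327 by edgeR) and Jag2 at -3.06 ± 0.89 (adjusted p = 0.0358 by edgeR). Against the untreated MamBo89 libraries alone neither was called (Jag1 -1.93, adjusted p = 0.1 by edgeR, and Jag2 -3.23, adjusted p = 0.144 by edgeR). Notch1, Notch2 and Notch3 were at -0.02 ± 0.25, 0.46 ± 0.38 and -0.27 ± 0.32. The other 5 genes lay between -2.01 and 0.27 and were not called. MamBo43 is 1 library of another tumor, so line, tumor and library cannot be told apart.

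Trastuzumab was then compared with no treatment inside the lines whose HER2 status it did not change. Within MamBo89, 0 of the 10 genes were called by edgeR, as were 0 of all 13782 genes tested (0%), where 724 genes had an unadjusted p under 0.05 and DESeq2 called 29, none of them among the 10. The 10 log2 fold changes ran from -0.59 (Dll1) to 0.96 (Hey1). Hes1 was at 68.5 and 74.5 CPM in untreated and 78.7 and 195 CPM in treated libraries. It was the 1 gene of the 10 whose groups did not overlap, which held for 26.0% of all genes tested. Its log2 fold change was 0.93 ± 0.52 (adjusted p = 0.721 by edgeR). Without MamBo89 2, which leaves AG3 as the untreated library, 2148 genes were called, 1 of the 10 among them.

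Within MamBo38, 0 of the 10 were called by edgeR, again as were 0 of all genes (0%), with 230 at an unadjusted p under 0.05 and 1 called by DESeq2, not among the 10. Dll1 (1.44 and 4.35 CPM untreated, 1.43 and 1.20 CPM treated) and Hes1 (65.6 and 20.7 CPM untreated, 85.4 and 87.9 CPM treated) did not overlap, at -1.13 ± 0.58 and 1.01 ± 0.52, with edgeR adjusted p of 1 for both. These 2 of the 10 genes compare with 39.9% of all genes tested whose groups did not overlap. The untreated MamBo38 libraries carry different codes, and the treated ones share that of MamBo38 1.

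Whether the trastuzumab effect in MamBo43 differs from that in MamBo89 was tested by the difference of the effects itself. Treated MamBo43 cells also lost HER2 and MamBo89 cells did not, so drug, HER2 loss and a shift in cell population cannot be told apart. Of the 10 genes, 7 were called, 1 higher and 6 lower, against 22.2% of all genes tested, with a median of -2.47, beside 0.04 over all. For Notch1 the difference was -2.31 ± 0.38 (adjusted p = 0.00926 by edgeR), for Notch3 -2.63 ± 0.47 (adjusted p = 0.0123 by edgeR) and for Jag1 3.05 ± 0.48 (adjusted p = 0.0079 by edgeR). These kept their call when each MamBo43 TRT and MamBo89 library in turn was left out, as did Hey1 at -6.56 ± 0.87 (adjusted p = 0.00479 by edgeR), which was -7.56 without MamBo89 2 and -5.96 without MamBo89 4.

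Other calls were lost when single libraries were left out, in several cases with a log2 fold change of like size. Dll1 was at -2.78 ± 0.74 (adjusted p = 0.0394 by edgeR), -3.38 without MamBo89 1, and lost its call without MamBo89 4 (-2.45, adjusted p = 0.126 by edgeR). Nrarp was at -3.12 ± 0.83 (adjusted p = 0.0441 by edgeR) and -4.09 without MamBo43 TRT 1. It lost its call without MamBo43 TRT 2 (-2.54) and without MamBo89 4 (-3.01).

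Hes1 was at -2.24 ± 0.80 (adjusted p = 0.0892 by edgeR). It lost its call at a like size without MamBo43 TRT 1 (-2.32), without MamBo43 TRT 2 (-2.19) and without MamBo89 1 (-2.21). Without MamBo89 4 it was smaller (-1.45) and not called. Notch2 (-0.37 ± 0.55), Heyl and Jag2 were not called. Jag2, at 2.71 ± 1.05 (adjusted p = 0.112 by edgeR), was called without MamBo43 TRT 1 (3.32, adjusted p = 0.0422 by edgeR) and without MamBo89 2 (3.05, adjusted p = 0.0673 by edgeR), and Heyl was called without MamBo89 2 (adjusted p = 0.0865 by edgeR).

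**Figure D4:**
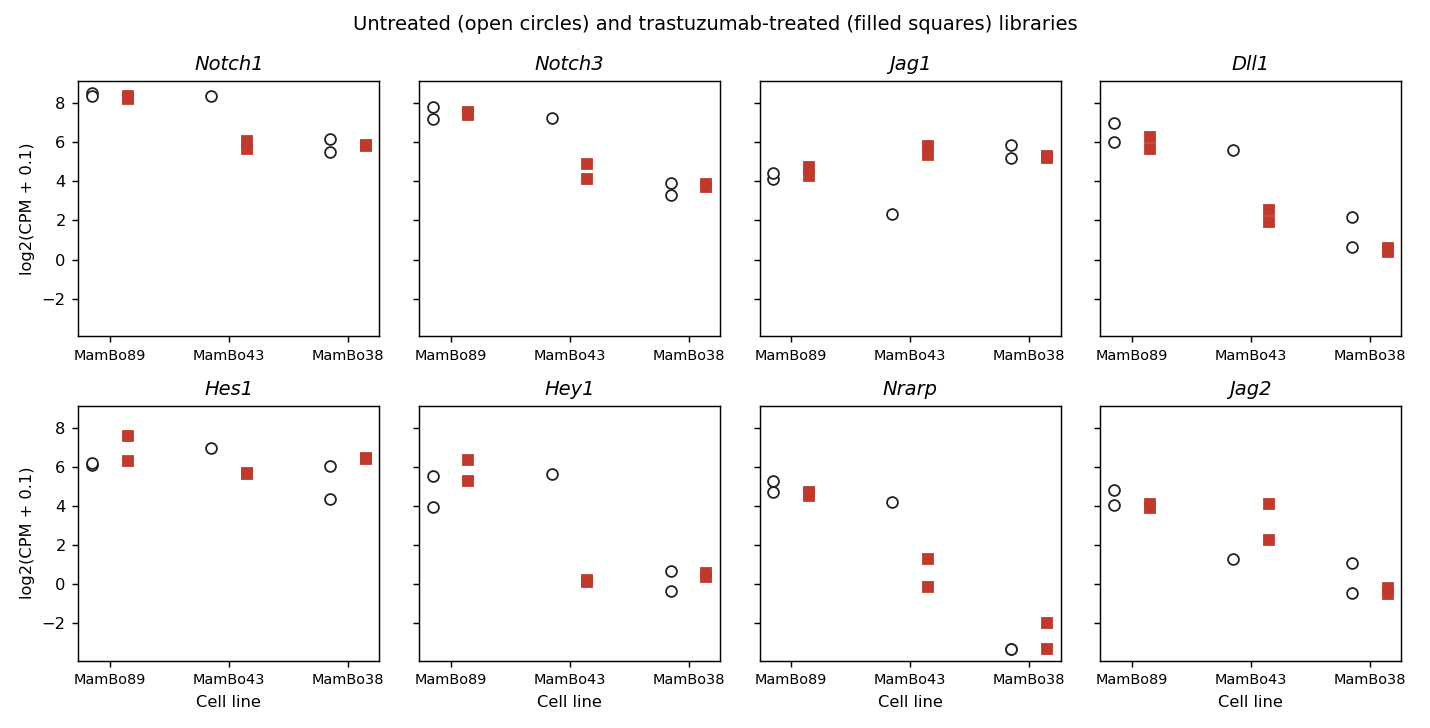
Open circles are untreated and filled squares trastuzumab-treated libraries of each line on the log2(CPM + 0.1) scale, for 8 of the 10 genes. Circles and squares lie at like heights in MamBo89 and MamBo38 for Notch1 and Notch3, whereas in MamBo43 both treated libraries are below the untreated one for Notch1 (50.0 and 67.0 against 329 CPM), Notch3, Dll1, Hes1, Hey1 and Nrarp and above it for Jag1.

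The rest of the pathway was followed through 53 further genes in 7 roles, all of them in the table. Of the 43 tested between HER2-negative and HER2-positive cells, 10 were called (23.3%, against 32.8% of all genes), 3 higher and 7 lower, with a median log2 fold change of -0.17, beside -0.04 over all. The 10 genes of receptor cleavage (furin, ADAM proteases and γ-secretase subunits) had 0 calls and a median of -0.33. Lack of a call includes genes that differed by a log2 fold change under 1 in size. Between MamBo38 and MamBo43, 2 of these 10 genes were called, both lower, against 35.9% of all genes tested. Calls were 1 of 4 in glycosylation, 1 of 4 in ligand endocytosis, 4 of 14 in the nuclear complex, 3 of 8 in turnover and inhibition, 1 of 2 among other receptors and ligands and 0 of 1 among other Hes and Hey genes.

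All 10 called genes had groups that did not overlap. Rbpj, the DNA-binding partner of the Notch intracellular domain, was the highest of them, at 65.0 ± 20.1 CPM (SD, n = 5) in HER2-positive and 375 ± 39.1 CPM (SD, n = 6) in HER2-negative libraries (2.53 ± 0.19, adjusted p = 4.5e-06 by edgeR). It was high where Hey1 and Nrarp were low. Lfng, a glycosyltransferase that modifies Notch receptors, was at 18.8 ± 3.995 CPM and 0.82 ± 0.38 CPM (-4.51 ± 0.34, adjusted p = 4.41e-06 by edgeR).

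Not all Tle co-repressors on the list were called, but Tle4 (-4.003 ± 1.20) and Tle2 (-3.05 ± 0.53) were lower. Tle4 was at 6.29 CPM on average in HER2-positive and 0.39 CPM in HER2-negative libraries, and Tle2 at 17.7 and 2.13 CPM. Also lower were Dtx1, a ubiquitin ligase of the Deltex family (-3.50 ± 1.09), the ligand Dll4 (-2.15 ± 0.48), at 1.28 and 0.28 CPM on average, and the Notch inhibitor Numb (-1.24 ± 0.12). Numbl, the relative of Numb, was higher (1.46 ± 0.33), as was Mib2, a ubiquitin ligase for ligands (1.43 ± 0.20).

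In the other comparisons, 46 of the 53 genes were tested. Of these, 17 were called between MamBo43 TRT and MamBo43 (5 higher and 12 lower), 15 between MamBo38 and MamBo43 (5 and 10), 7 between MamBo38 and MamBo43 TRT (5 and 2), 6 between MamBo43 and MamBo89 (5 and 1) and 12 in the difference of trastuzumab effects (2 and 10). These are 37%, 32.6%, 15.2%, 13% and 26.1% of the genes tested. The shares of all genes called, given above, were 29.1%, 35.9%, 20.4%, 18.9% and 22.2%. Within MamBo89 and within MamBo38 edgeR called 0 of the 46.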

How the data were processed

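RNA-seq of 11 libraries was analysed from the table of expected counts that the authors deposited. Per the submitters' processing notes they used bcl2fastq, STAR 2.5, RSEM 1.3.0 and mm10, and per the methods a TruSeq RNA v2 kit, taken here as keeping no strand, and single-end reads. All values were whole numbers and were used as deposited. Groups came from the labels, and the HER2 status of MamBo43 TRT from the methods.

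Genes were kept by filterByExpr (minimum count 10, minimum total 15), sizes were scaled by TMM, and glmQLFit and glmQLFTest of edgeR 4.0.16 (R 4.3.3) were run on all libraries with 2 groups (HER2 status), 4 groups or 6 arms (line by treatment). P-values were adjusted by Benjamini-Hochberg over all genes tested, and genes were called at 0.1 and a log2 fold change of at least 1 in size, the thresholds of the study's methods, which used DESeq2. SE is the absolute log2 fold change over the square root of F, and the prior count was 0.125. CPM per kb uses the exon union of GENCODE M21. Each of these 3 models was tested on simulated counts. Replicates were compared: none of 13 pairs within groups was identical, and the chi-square per degree of freedom was at least 6.78.

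The 10 genes and the gene lists were chosen with earlier results of these data known. Each of the 10 is named in the comparisons, and other pathway genes are named where called by HER2 status with no overlap, apart from 1 that is not reported here. The depth of 17040454 to 27127662 counts makes counting error small for most values, but not for Heyl, or for Nrarp, Hey1, Jag2 and Dll1 in some HER2-negative libraries, floors cover counting error only, and the number of libraries limits precision. Alternatives were DESeq2 1.42.0, RLE size factors, other filters and thresholds, robust estimation, code or tumor as covariates, subsets of libraries and leaving out each library.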

Additional observations from a re-analysis of the deposited data

Results flagged for a closer look

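A library far from the rest of its group was sought in 38 sets of 4 to 6 values, and about 1 in 20 such sets is marked by chance. It was found in 8, of which 4 concern MamBo38 2: within MamBo38 its Notch2 was low at 51.5 CPM (nearest value 105), and its Jag1 (58.9 CPM, nearest 38.7), Jag2 (2.01 CPM, nearest 0.77) and Dll1 (4.35 CPM, nearest 1.44) were high. This library carries another code than the other 3 MamBo38 libraries. Within MamBo89, Hes1 in the library treated for 60 days was at 195 CPM (nearest 78.7). Within MamBo38, Nrarp was at 0.15 CPM in the library treated for 60 days, and at 0 in the others, which is a matter of 4 counts. Among HER2-negative libraries, Jag2 in MamBo43 TRT 2 was at 16.8 CPM (nearest 4.61) and Nrarp in MamBo43 TRT 1 at 2.30 CPM (nearest 0.80).

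The effect of trastuzumab differed between MamBo43 and MamBo89 for 7 genes by edgeR's test of the difference itself, in log2 units of the MamBo43 effect minus the MamBo89 effect: Notch1 at -2.31, Notch3 at -2.63, Jag1 at 3.05, Dll1 at -2.78, Hes1 at -2.24, Hey1 at -6.56 and Nrarp at -3.12. The untreated side of MamBo43 is 1 library in all 7. Its treated side is also the side that lost HER2, so drug and HER2 loss cannot be told apart.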

How the results depend on the processing

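The 6 calls between HER2 classes held in direction and threshold under every alternative run, except that Nrarp was not tested when each library needed 10 counts. Counts over all genes moved as follows. With at least 10 counts required in every library, fewer genes were tested and 2597 were called between HER2 classes, 2462 between MamBo43 TRT and MamBo43 and 2810 between MamBo38 and MamBo43. Under that filter 1318 were called between MamBo38 and MamBo43 TRT (1 of the 10 genes) and 1391 between MamBo43 and MamBo89. With the main filter but untreated libraries only, 774 (0 of the 10) were called between MamBo43 and MamBo89, beside 2604 in the main fit. DESeq2 called 29 genes within MamBo89 and 1 within MamBo38, where edgeR called 0. The difference of trastuzumab effects gave 1991 genes at an adjusted p under 0.05. Leaving out single libraries gave 1606 (without MamBo89 4) to 4428 (without MamBo89 2) calls for that difference, 1664 without MamBo43 TRT 2, and 4 to 9 of the 10 genes, and 0 to 2148 calls within MamBo89 (0 to 1 of the 10).

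Signs turned for values that were not called. For Jag2 between HER2 classes it was 0.87 with tumor as a covariate and 0.85 within tumor B, and for Notch2 leaving out a library gave -0.18 to 0.083 there and -0.48 to 0.037 between MamBo43 TRT and MamBo43. Between MamBo38 and MamBo43 TRT, Notch1 was 0.0129 by DESeq2, 0.0132 with RLE factors, 0.0126 with the stricter filter, 0.32 with the code as covariate and 0.32 in libraries of 1 code (-0.22 to 0.22 on leaving out a library), Jag1 0.29 with the code and 0.29 within it (-0.39 to 0.071), and Hes1 -1.29 and -1.28. Between MamBo43 and MamBo89, Notch1 was 0.0074 by DESeq2 and with RLE factors, 0.0085 with the stricter filter and 0.069 without both AG3 and MamBo38 2, an alternative chosen after seeing the data (-0.074 to 0.094 on leaving out a library), and Hey1 -0.10 without both (-0.080 to 0.58). The causes were not tested. RLE factors moved the median of all genes by under 0.04. No paired analysis was run. The labels give no replicate numbers, and treated libraries of different lines could be matched only by schedule. The number of libraries, above all the single MamBo43 one, and the low counts of Heyl and, in some HER2-negative libraries, of Nrarp, Hey1, Jag2 and Dll1 limit these results.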
